A study of Danio rerio with 2 samples.

Results

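The cells described here are chondrocytes of the juvenile zebrafish jaw and skull with high epyc and moderate matn1, 73 of 4062 cells in 2 single-cell libraries (1.80%, interval 1.41 to 2.25%). They were chosen by measured values: at least 40 epyc UMIs per 10000 UMIs of the cell, at least 30 and under 120 matn1 UMIs per 10000, at most 4 mmp13b UMIs, at most 3 sesn1 UMIs and at most 2 UMIs of kiaa0101 and rrm2 together. A UMI, or unique molecular identifier, tags 1 captured transcript, and the last 3 limits keep out cells with hypertrophy, nutrient-stress and replication transcripts. These cells are called gated cells below, and every other barcode of the same library an other cell. The mutant library came from nkx3.2 el802/el802 fish aged 22 days post fertilization and the other library from WT fish aged 21 days, by their characteristics; the protocol text gives 21 days for both, and age cannot be told apart from genotype. All fish carried Tg(fli1a:EGFP)y1 and Tg(sox10:DsRed)el10, and live cells positive for both reporters had been sorted from dissociated tissue, so cells lacking either reporter are not represented. How many fish were pooled is not given in the sources used here. Each genotype is 1 library, so no test between genotypes was made. All intervals are exact 95% intervals for counting error only, and they do not cover differences between animals or between cells. For genes that vary between cells beyond counting, such as bhmt, mia and col2a1a, they are too narrow.

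Cartilage is built by chondrocytes that secrete type II, IX and XI collagens and proteoglycans, and bind them together with adaptor proteins. Epyc encodes epiphycan, a small leucine-rich proteoglycan of cartilage, and matn1 encodes matrilin-1, an adaptor that links collagen fibrils to proteoglycans. Nkx3.2 is a homeodomain transcription factor needed for the jaw joint, and in mammals and birds it also holds back the maturation of chondrocytes into the hypertrophic state.

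The mutant library held 40 gated cells of 2005 (2.0%, interval 1.43 to 2.71%) and the WT library 33 of 2057 (1.6%, interval 1.11 to 2.25%). Those intervals overlapped. The gate cut through a continuous distribution: 28 of the 40 mutant cells and 20 of the 33 WT cells had epyc between 40 and 45 UMIs per 10000, and 31 mutant cells and 31 WT cells lay just outside at 35 to under 40 with all other conditions met. Near the matn1 limit, 12 mutant and 7 WT gated cells had 110 to under 120 UMIs per 10000, and 7 mutant and 2 WT cells lay just outside at 120 to under 130. Epyc in gated cells ran from 40.02 through a median of 43.0 to 64.9 UMIs per 10000 in the mutant library, and from 40.04 through a median of 43.0 to 68.2 in the WT library. An epyc minimum of 60 left 1 cell in each library.

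The word moderate did not mean the same in the 2 libraries. The median matn1 level of gated cells was 92.5 UMIs per 10000 in the mutant library, where it stood at the 82.0th percentile of all cells, and 92.8 in the WT library, where it stood at the 69.2th percentile. The upper limit of 120 was the 89.98th percentile in mutant cells and the 76.9th in WT cells. Of the cells with enough epyc, 51 of 98 mutant cells and 149 of 182 WT cells exceeded the matn1 limit, and 0 in either library were under its lower bound. With the matn1 window moved in the mutant library to the same percentiles as in WT, 24.3 to under 81.1 UMIs per 10000, 10 mutant cells passed (0.499%), in place of 40. This window was chosen after the data were examined. The sesn1 limit kept out 6 mutant cells and 0 WT cells that met the epyc and matn1 conditions, so mutant cells with high sesn1, which encodes a stress-induced inhibitor of mTORC1, are missing by construction.

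**Figure D1:**
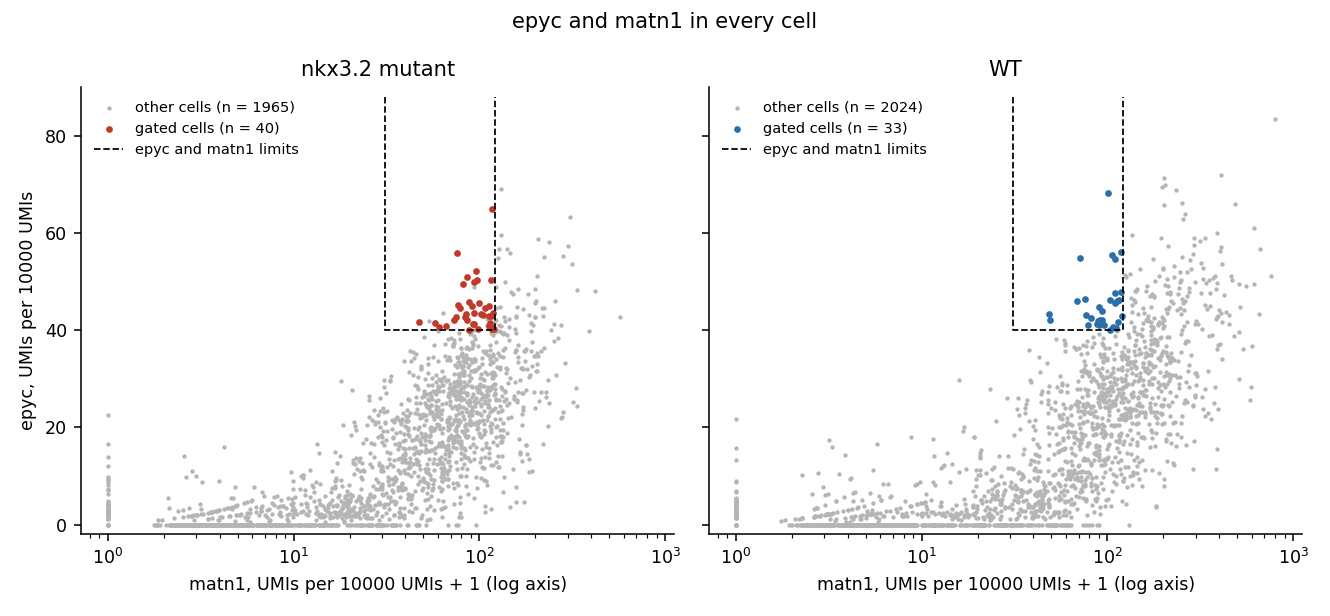
Epyc against matn1 in every cell, both in UMIs per 10000 UMIs (matn1 plus 1, on a log axis), with the mutant library left and the WT library right. Coloured points are the 40 and 33 gated cells, grey points the other cells, and the dashed line the epyc and matn1 limits; the gated cells are the upper edge of a continuous cloud, and more of the high-epyc cells lie to the right of the window in WT.

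Gated cells were deeper than other cells. Their median was 9901 UMIs in the mutant library and 10699 in the WT library, against 6941 in other mutant cells and 5750 in other WT cells. Ribosomal protein transcripts made up a median of 50.9% of UMIs in mutant and 47.0% in WT gated cells, and 2 WT gated cells stood apart at 16.2% and 22.6%, with 2494 and 2549 UMIs. The libraries shared 4 cell barcodes, of which 0 were gated, and Scrublet marked 8 mutant and 3 WT barcodes as doublets, of which 0 were gated; so few calls leave doublets of like cells unseen. The part of depth in the results below was not tested, except where values without the deepest cells are given.

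The label of chondrocyte was checked against the genes these cells carried, and rests on matrix genes. Summed over gated cells, 29 cartilage matrix genes found in the files took 795 UMIs per 10000 in the mutant library and 985 in the WT library, against 438 in other mutant cells and 648 in other WT cells. The gate itself asked for epyc and matn1, both cartilage matrix transcripts, and left all 1866 matn1-low cells among the other cells. This excess is thus partly fixed by the gate and is no independent support for the label. The transcription factor sox6, a partner of sox9 in cartilage, was at 1.92 UMIs per 10000 in mutant and 1.94 in WT gated cells, against 1.36 in other mutant and 1.93 in other WT cells. The 22 cartilage transcription factors together were not above other cells, at 5.89 in mutant and 6.10 in WT gated cells, against 6.01 and 8.38. Sox9a itself, the master regulator of cartilage, gave only 2 UMIs in mutant and 5 in WT gated cells. Bone and hypertrophy genes were lower than in other cells, which for hypertrophy is partly fixed by the cap on mmp13b and is no support for the label. Since the other cells hold all 1866 matn1-low cells, the low bone, epithelial and fibrous sums below are no independent support for it either. The 17 hypertrophy genes summed to 6.59 UMIs per 10000 in mutant and 5.07 in WT gated cells, against 12.6 and 22.5 in other mutant and WT cells. The 15 osteoblast markers summed to 0.481 UMIs per 10000 in mutant and 1.03 in WT gated cells, against 6.68 and 17.0 in the other cells of the same libraries, with 10 and 9 of the markers at 0 UMIs. Epithelial markers, keratins among them, summed to 5.0 and 6.40 UMIs per 10000, against 20.5 and 27.1 in other mutant and WT cells. Fibrous and perichondrial matrix genes summed to 14.8 and 17.6, against 21.9 and 37.0. Leukocyte markers gave 2 and 8 UMIs in all, endothelial markers 9 and 10, red blood cell markers 0 and 1, and glial and pigment markers 0 and 1. Per 10000 UMIs, leukocyte markers were at 0.0481 in mutant and 0.243 in WT gated cells, against 0.0910 and 0.148 in other mutant and WT cells. Muscle markers gave 3 and 50 UMIs, or 0.0722 and 1.52 per 10000, against 0.129 and 0.365, so they were higher in WT gated cells. One WT gated cell held 44 UMIs of the muscle gene tcap. The proliferation genes mki67 and top2a were at 0 UMIs in the gated cells of both libraries, which the cap on kiaa0101 and rrm2 partly fixes. The 29 genes of G2 and mitosis were not all at 0. They summed to 13.5 UMIs per 10000 in mutant and 9.98 in WT gated cells, against 14.7 and 15.3 in other mutant and WT cells. But 3 of the 29 took 12.7 and 9.71 of the gated sums, and 18 and 23 were at 0 UMIs. The largest of the 3 was tubb4b, a tubulin gene, with a median per cell of 11.0 in mutant and 7.98 in WT gated cells. The sums thus rest on few genes and are no measure of mitosis. The 24 joint and articular surface genes summed to 4.16 UMIs per 10000 in mutant and 2.76 in WT gated cells, against 3.17 and 3.62 in other mutant and WT cells, with 16 and 14 of them, gdf5 among these in both, at 0 UMIs. The 37 jaw and arch patterning genes summed to 4.23 and 2.61, against 4.97 and 4.41, with 21 of them at 0 in each library.

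The 5 genes given as marks of these cells were all above the other cells in both libraries; since expression of the same cells chose them, the folds are a description and no test. Epyc (ENSDARG00000056950) is fixed by the gate, at 44.4 UMIs per 10000 in mutant and 44.5 in WT gated cells, against 16.0 and 17.4 in other mutant and WT cells. Kif26ba (ENSDARG00000013343), a kinesin-family gene, was at 1.01 UMIs per 10000 in mutant and 1.27 in WT gated cells, or 2.26-fold (1.62 to 3.09) and 2.1-fold (1.5 to 2.86) other cells; 1 cell held 15.5% of its UMIs. Mia (ENSDARG00000052437), a small secreted protein of cartilage, was at 101 and 115 UMIs per 10000, or 1.73-fold (1.68 to 1.78) and 1.82-fold (1.76 to 1.88) other mutant and WT cells.

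Bhmt (ENSDARG00000013430), whose enzyme regenerates methionine from homocysteine with betaine, was at 27.6 UMIs per 10000 in mutant and 31.3 in WT gated cells, against 18.2 in other mutant cells and 12.1 in other WT cells. Its fold over other cells was 1.51 (1.42 to 1.6) in the mutant library and 2.58 (2.43 to 2.75) in WT; the gated levels lay closer together than those of the other cells. Ptn (ENSDARG00000102340), the heparin-binding growth factor pleiotrophin, was the weakest mark: 2.02 UMIs per 10000 in mutant and 1.43 in WT gated cells, or 1.76-fold (1.40 to 2.20) and 1.34-fold (0.978 to 1.79) other cells. In WT the interval for ptn included 1.

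Few genes stood out in gated cells, and many were low. Of 4339 genes with at least 100 UMIs in each library, 0.369% (16 genes, epyc among them) were at least 2-fold higher than in other cells of both libraries, and 5.39% (234 genes) were at least 2-fold lower. Of the 15 genes named as highest, 7 encode cartilage collagens. Col11a1a, an XI collagen chain, was at 57.7 UMIs per 10000 in mutant and 80.3 in WT gated cells, against 28.8 and 45.5 in other mutant and WT cells. Col11a2, col2a1a, col2a1b, col9a1a, col9a2 and col9a3 were 1.90-fold to 2.01-fold other cells in the mutant library and 1.59-fold to 1.72-fold in WT, so each passed 2-fold in at most 1 library. Papss2b, which makes the sulfate donor for proteoglycans, was at 1.80 UMIs per 10000 in mutant and 1.55 in WT gated cells, against 1.11 and 1.01 in other cells. ENSDARG00000040535, listed as CSGALNACT1 in the gene name table and known in mammals for starting chondroitin sulfate chains, was at 1.76 in mutant and 2.40 in WT gated cells, against 1.0 and 1.31.

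The uncharacterised si:dkey-31g6.6 led the 15 by the smaller of its folds, 2.51 (1.99 to 3.12) in the mutant library and 2.66 (2.13 to 3.29) in WT. Srpx was 1.69-fold (1.4 to 2.02) and 1.78-fold (1.48 to 2.13) other mutant and WT cells, and EXTL1 1.51-fold (1.23 to 1.84) and 1.63-fold (1.27 to 2.06). Nucb2a, a calcium-binding secretory protein, was 1.93-fold (1.53 to 2.41) and 1.85-fold (1.51 to 2.24) other mutant and WT cells. Among the 10 genes named as lowest were genes of hypertrophic cartilage, bone, fibrous tissue and epithelium. Col10a1a, the collagen of hypertrophic cartilage, gave 3 UMIs in mutant and 11 in WT gated cells, or 0.0220-fold (0.00453 to 0.0643) and 0.0349-fold (0.0174 to 0.0625) other cells. Col1a2, the bone and skin collagen, gave 2 and 1 UMIs, and spp1, the bone matrix protein osteopontin, 2 and 2. F13a1b, which encodes a transglutaminase subunit, gave 7 and 2. Krt18, a keratin, was at 1.03 UMIs per 10000 in mutant and 1.30 in WT gated cells, against 6.55 and 10.6 in other cells.

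Set against their nearest neighbours, gated cells differed little. Cells with the same epyc minimum and the same limits but matn1 of 120 or more numbered 48 in the mutant library and 140 in WT. Of 473 genes measured against them, 0 were at least 2-fold higher in gated cells of both libraries and 9 were lower. Among the 9, chosen here after their values were seen, cthrc1a, a secreted collagen triple helix repeat protein, was at 6.11 UMIs per 10000 in mutant and 7.83 in WT gated cells, against 18.4 and 19.1 in the high-matn1 cells. The secreted protease-like prss35 was at 3.92 and 2.91, against 8.53 and 10.8. The stress transcription factor gene atf4b was at 2.48 and 2.58, against 4.99 and 6.22.

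Of the given marks, bhmt alone was above the high-matn1 cells with an interval over 1 in both libraries, at 1.96-fold (1.77 to 2.18) in the mutant and 2.23-fold (2.06 to 2.41) in WT. Ptn was 2.25-fold (1.48 to 3.47) in the mutant and 1.17-fold (0.818 to 1.63) in WT. Mia did not separate them, at 0.895-fold and 1.03-fold, while col2a1a was lower in gated cells, at 0.812-fold (0.785 to 0.841) in the mutant and 0.785-fold (0.765 to 0.805) in WT.

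Against cells with the same matn1 window and epyc under 40, numbering 639 in the mutant library and 620 in WT, 3 of 2010 genes were at least 2-fold higher in gated cells of both libraries and 48 were lower. The 3 were epyc, mesdc2 and pck2, and epyc was higher by the definition of the sets. Pck2, the mitochondrial enzyme that makes phosphoenolpyruvate, was at 1.44 UMIs per 10000 in mutant and 2.88 in WT gated cells, against 0.696 and 0.817 in those cells. Tgm2l, a transglutaminase gene, ran the other way: 1.73 UMIs per 10000 in mutant and 1.0 in WT gated cells, against 2.76 and 9.47 in the low-epyc cells, or 0.627-fold (0.489 to 0.795) and 0.106-fold (0.0726 to 0.149).

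**Figure D2:**
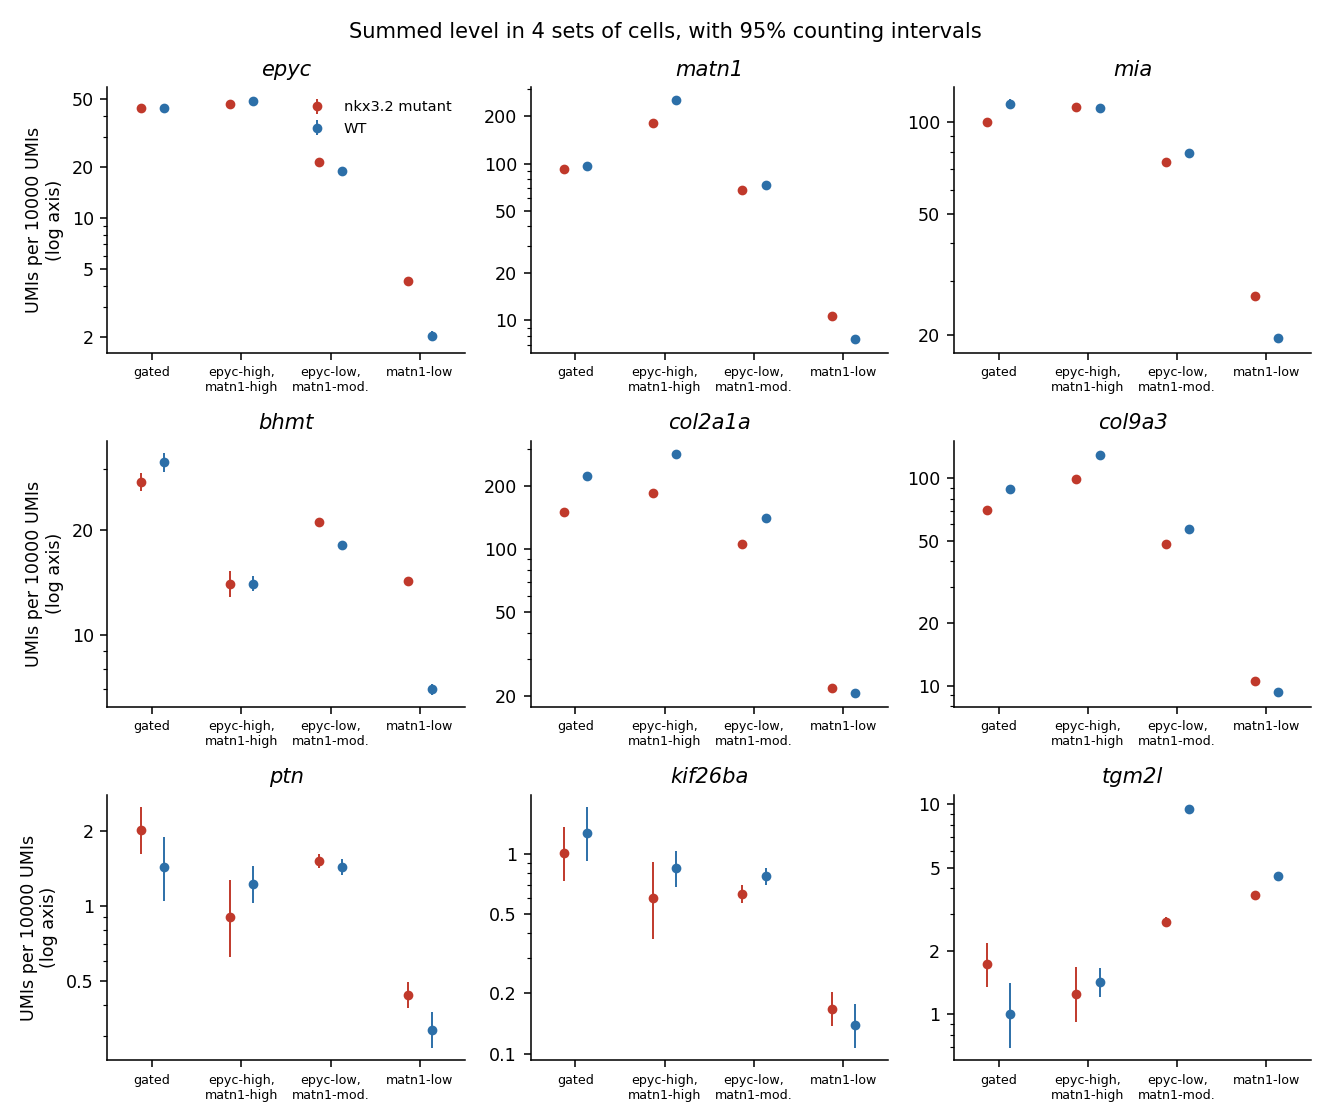
Summed level of 9 genes (UMIs per 10000 UMIs, log axes) in gated cells, epyc-high and matn1-high cells, epyc-low and matn1-moderate cells, and matn1-low cells, for mutant (red, left of each pair) and WT (blue); bars are 95% counting intervals. Bhmt peaks in gated cells, at 27.6 and 31.3, whereas col2a1a and col9a3 rank between the matn1-high and the epyc-low cells in each library, and tgm2l is highest in epyc-low WT cells.

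Between genotypes, gated cells were compared over 1164 genes with at least 30 UMIs in gated cells of both libraries together. Of these, 4.04% (47 genes) were at least 2-fold higher in mutant gated cells and 5.07% (59 genes) at least 2-fold lower. The median log2 ratio over all 1164 genes was -0.05, and -0.13 for the same genes in other cells. The counting interval of 144 genes lay above 1 and that of 145 genes below 1. At any size of ratio, 531 of the 1164 genes were higher and 633 lower in mutant gated cells.

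The targeted gene was not lower in mutant gated cells. Nkx3.2 (ENSDARG00000037639) gave 35 UMIs in mutant and 11 in WT gated cells, or 0.842 and 0.334 UMIs per 10000, a ratio of 2.52 (1.25 to 5.51). In other cells the ratio was 0.875. The nature of the el802 lesion is not given in the sources used here, so transcript counts do not check the genotype labels. One cell held 15.2% of the gated nkx3.2 UMIs, and without that cell the log2 ratio was 1.06 in place of 1.33.

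The collagens of cartilage were lower in mutant gated cells, as in mutant cells at large. Col2a1a (ENSDARG00000069093), the main fibril collagen, was at 151 UMIs per 10000 in mutant and 224 in WT gated cells, a log2 ratio of -0.57. Per cell it ran from 63.3 through a median of 148 to 300 UMIs per 10000 in the mutant, and from 113 through a median of 218 to 1375 in WT. The ranges overlapped, and 4 WT cells stood far above the rest, at 598, 710, 985 and 1375. The cells at 985 and 1375 were the 2 of low ribosomal share, with 2549 and 2494 UMIs. The cell at 598 was the shallowest WT gated cell, with 2308 UMIs. Without the 2 WT cells of low ribosomal share the log2 ratio was -0.47. With every cell weighted equally, which gives these shallow cells more weight, it was -0.95.

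Col11a1a had a log2 ratio of -0.48, col11a2 of -0.45, col2a1b of -0.43, col9a1a of -0.40, col9a3 of -0.33 and col9a2 of -0.17, each with an interval of the ratio below 1. Of 19 cartilage matrix genes measured, 16 were lower and 3 higher, against 633 lower and 531 higher of all 1164 genes. Their median log2 ratio was -0.21, against -0.59 for the same genes in other cells. The gate held matn1, a cartilage matrix transcript, to the same window in both libraries, and other cells had no such limit. The smaller shift in gated cells is thus no independent result. Only 1 of the 19 passed 2-fold, which is close to the 5.07% of all genes. That gene was ucmaa (ENSDARG00000027799), a calcium-binding protein of cartilage matrix, at 1.92 UMIs per 10000 in mutant and 5.76 in WT gated cells (log2 -1.58). Its median per cell was 0 in the mutant and 3.99 in WT, and cells of both genotypes reached high values, up to 11.2 and 26.4. Its partner gene ucmab did not follow, at 17.1 in mutant and 18 in WT gated cells. Ucmab was chosen after its values were seen. Chad, a cartilage leucine-rich repeat protein, was higher, at 1.47 and 0.758 UMIs per 10000, but 1 cell held 11.6% of its UMIs and the log2 ratio turned from 0.95 to -1.32 in the scaled matn1 window.

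Transcripts for proteins that fold and export collagen were also lower. All 9 measured members of that list were lower in mutant gated cells, against 633 of all 1164 genes. Of the 9, 2 were at least 2-fold lower, against 5.07% of all genes. An interval below 1 was found for 4 of the 9, against 145 of all 1164 genes. The median log2 ratio of the 9 was -0.43, against -0.70 for the same genes in other cells. It ran from -0.74 to -0.21 across the alternative runs. Serpinh1b, the collagen chaperone Hsp47, was at 1.97 UMIs per 10000 in mutant and 4.09 in WT gated cells, a log2 ratio of -1.05. P4hb, the shared subunit of prolyl 4-hydroxylase and protein disulfide isomerase, was at 4.38 and 6.58, with 1 cell holding 13.8% of its UMIs. Fkbp14, a prolyl isomerase of the endoplasmic reticulum, was at 0.986 and 1.94. Of 6 genes of endoplasmic reticulum folding, 5 were lower, against 633 of all 1164 genes. Their median log2 ratio was -0.42, against -0.74 for the same genes in other cells. The 1 higher gene was pdia3, a disulfide isomerase, at 6.52 UMIs per 10000 in mutant and 4.79 in WT gated cells.

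Immediate early genes, which are switched on within minutes of a stimulus and also by tissue dissociation, were lower in mutant gated cells. Of 13 measured, 12 were lower, against 633 of all 1164 genes, with a median log2 ratio of -0.87. Of the 13, 6 were at least 2-fold lower, against 5.07% of all genes. The median of the same genes in other cells was -0.41. Fosab, a c-Fos gene chosen after its values were seen, gave 40 UMIs in mutant and 111 in WT gated cells, or 0.962 and 3.37 UMIs per 10000 (log2 -1.81). Junba, a JunB gene, was at 4.02 UMIs per 10000 in mutant and 7.34 in WT gated cells (log2 -0.87). Per cell, junba ran from 0 through a median of 3.18 to 14.5 in the mutant and from 0 through a median of 6.84 to 24.0 in WT, so the ranges overlapped. The list median shrank to -0.30 with an epyc minimum of 30 and to -0.26 with cells gated after thinning to 3000 UMIs. Gating after thinning took 87 mutant and 46 WT cells, of which 27 and 19 were in the main gate. That run is thus mostly of other cells. Id1, a target of BMP signalling, was at 1.88 and 4.49, with 1 cell holding 13.7% of its UMIs.

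**Figure D3:**
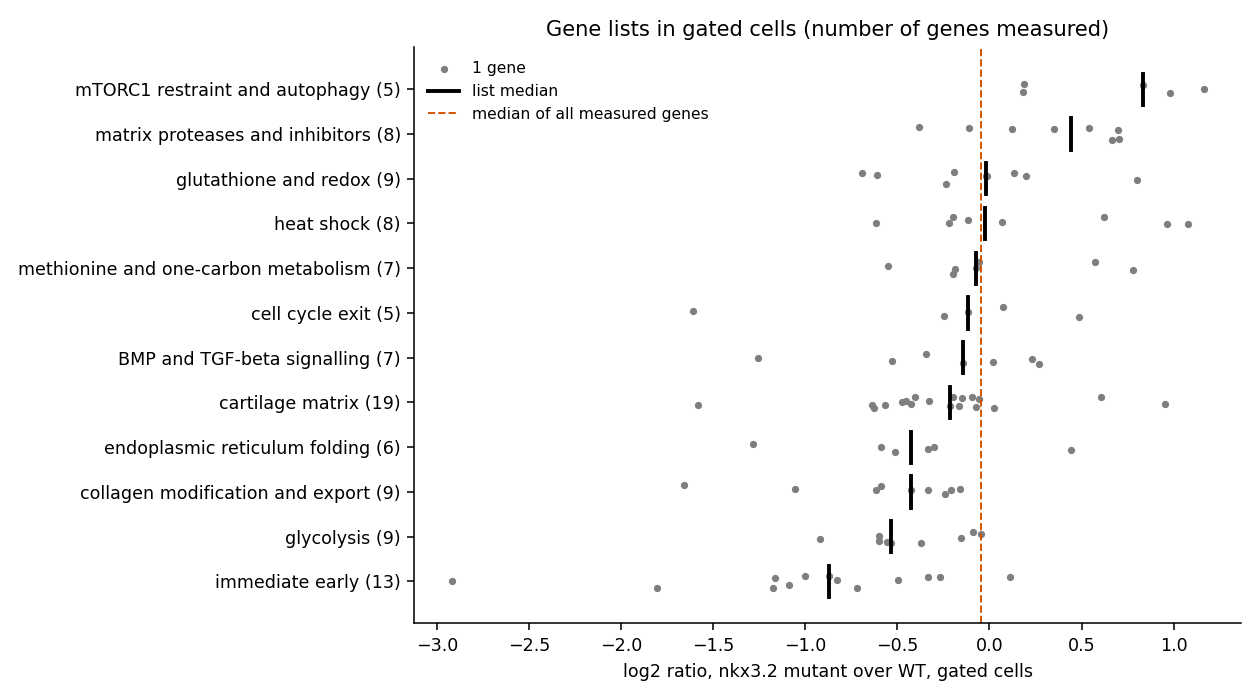
Log2 ratio of mutant over WT in gated cells for each measured gene (grey points) of 12 gene lists, with list medians (black) and the median of all measured genes (dashed). Immediate early genes lie farthest left, with a median of -0.87, and the mTORC1 restraint list farthest right, with a median of 0.84 over 5 genes. That last median is the value of sesn1, a gene capped by the gate.

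Metabolic genes moved in both directions. All 9 measured glycolysis genes were lower in mutant gated cells, against 633 of all 1164 genes, with a median log2 ratio of -0.53. Yet 0 of the 9 had an interval excluding 1, against 144 of all 1164 genes above 1 and 145 below. Mdh1aa, the cytosolic malate dehydrogenase, was at 3.39 UMIs per 10000 in mutant and 6.16 in WT gated cells (log2 -0.86), and cox7c, a subunit of cytochrome oxidase, at 1.49 and 2.70 (log2 -0.86). In the methionine pathway, ahcy, which hydrolyses S-adenosylhomocysteine, was at 2.55 and 1.49 UMIs per 10000 (log2 0.78), while bhmt was at 27.6 and 31.3 (log2 -0.18). Bhmt ran from 0 through a median of 17.6 to 76.3 UMIs per 10000 in mutant gated cells and from 0 through a median of 25.4 to 85.5 in WT, so the ranges nearly coincided. Without its top cell the log2 ratio of bhmt was -0.03.

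Several genes were higher in mutant gated cells. Mmp2 (ENSDARG00000017676), a gelatinase that cuts denatured collagen, was at 9.60 UMIs per 10000 in mutant and 5.88 in WT gated cells, a log2 ratio of 0.71. Per cell it ran from 1.71 through a median of 8.74 to 39.6 in the mutant and from 0 through a median of 5.05 to 25.1 in WT. The log2 ratio shrank to 0.06 when cells were gated after thinning, a run mostly of cells outside the main gate. Timp4.3 and timp2a, inhibitors of metalloproteases, had log2 ratios of 0.70 and 0.54, but timp4.3 turned to -0.12 with an epyc minimum of 30, and timp2a to -0.03 with equal weight for 3 matn1 bands. Of 8 proteases and inhibitors measured, 6 were higher, against 531 of all 1164 genes. Of the 8, 0 were at least 2-fold higher, against 4.04% of all genes. Their median log2 ratio was 0.44, or -0.01 with that weighting, against -0.40 for the same genes in other cells.

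Bcl2l10, a BCL2-family gene, had the highest ratio among genes of at least 100 UMIs that the naming rule took, at 2.02 UMIs per 10000 in mutant and 0.758 in WT gated cells (log2 1.41). It was 0.27 in the scaled matn1 window. Angptl1b, a secreted angiopoietin-like protein, was at 2.33 and 1.09 (log2 1.09), pmp22a, a membrane protein gene, at 1.95 and 0.940 (log2 1.05), and fabp3, a fatty acid carrier, at 2.89 and 1.40 (log2 1.05). Eif4ebp3, a repressor of translation initiation restrained by mTORC1, was at 5.89 and 3.16 (log2 0.90), and it stayed between 0.83 and 1.5 in every alternative run. Map1lc3b, which coats autophagosomes, was at 1.97 and 1.0 (log2 0.98), and akt1s1, an mTORC1 inhibitor, at 1.15 and 0.516 (log2 1.16). The log2 ratio of angptl1b was 0.41 with matn1 from 40 to 100, that of pmp22a 0.44 with an epyc minimum of 30, that of map1lc3b 0.33 with equal weight for 3 matn1 bands, and that of akt1s1 0.24 in the scaled window.

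All 5 measured genes of mTORC1 restraint and autophagy were higher in mutant gated cells, against 531 of all 1164 genes, with a median of 0.84. That median is the value of sesn1, 1 of the 5, which the gate capped, so it is no independent result about the list. The same genes had a median of 0.30 in other cells. Of the 5, only akt1s1 passed 2-fold, against 4.04% of all genes, and a single gene is no result about the list. Ctgfa, the matrix protein CCN2, was at 5.53 UMIs per 10000 in mutant and 3.37 in WT gated cells (log2 0.72), and at -0.01 without cells over 2 times the median depth. Ugp2b, which makes UDP-glucose, had a log2 ratio of 0.84.

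Further named genes were lower in mutant gated cells. Mdka, the growth factor midkine, was at 2.84 UMIs per 10000 in mutant and 6.13 in WT gated cells (log2 -1.11), and at -0.13 in the scaled matn1 window. The gene zgc:158343 was at 2.28 and 5.07, si:ch73-46j18.5 at 1.35 and 3.0, and ost4, a subunit of the enzyme that attaches N-glycans, at 1.08 and 1.97. Fgfbp2b, an FGF carrier protein, was at 31.9 and 49.7 UMIs per 10000 (log2 -0.64). The 3 other FGF genes measured were higher: fgfr1b had a log2 ratio of 0.74, fgfrl1b of 0.75 and fgfr3 of 0.08, each with an interval of the ratio that included 1. Of 7 BMP and TGF-beta genes 3 were higher and 4 lower (median -0.14). Fewer genes were measured in other signalling lists: igfbp3 (log2 -0.84, or -0.21 with matn1 from 40 to 100) for IGF, frzb (0.21) and fzd7a (-1.48) for Wnt, and boc (0.58) and pth1ra (-0.15) for hedgehog and PTHrP. Heat shock genes split 4 and 4 (median -0.02), glutathione genes 3 higher and 6 lower (median -0.02), and cell cycle exit genes 2 higher and 3 lower (median -0.12). The methionine list had 2 higher and 5 lower (median -0.07), and the 5 given marks 1 higher and 4 lower (median -0.18). Over all 1164 genes, 531 were higher and 633 lower. Epyc, 1 of those 4 lower marks, is fixed by the gate, so its direction is no result. Of the 5 marks, 2 had an interval below 1, against 145 of all 1164 genes. These were bhmt and mia, and their log2 ratios reached 0.10 and 0.08 across the alternative runs.

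**Figure D4:**
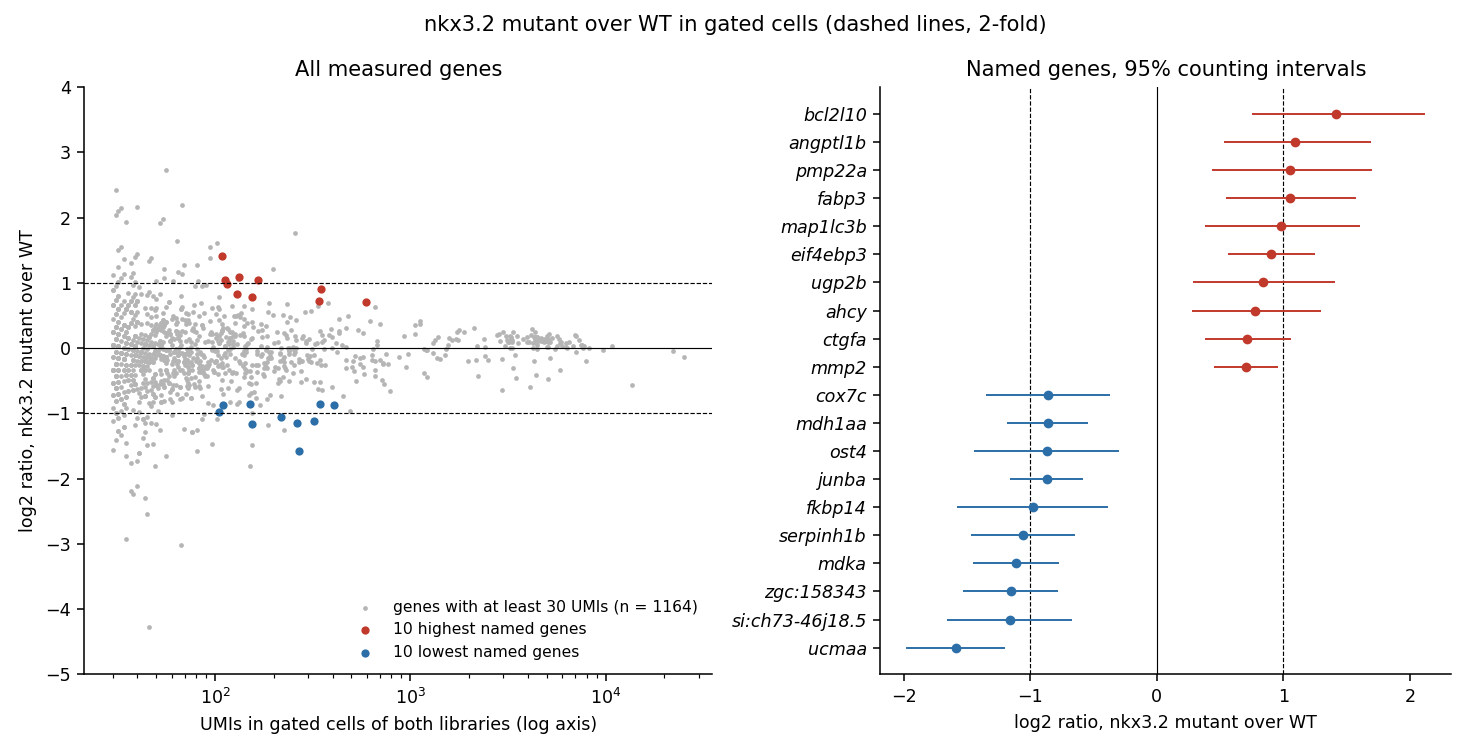
Left, log2 ratio of mutant over WT in gated cells against the UMIs in both libraries (log axis) for 1164 genes; right, the 10 highest and 10 lowest named genes with 95% counting intervals. Dashed lines mark 2-fold, and most genes past them have few UMIs; the named genes run from bcl2l10 at 1.41 to ucmaa at -1.58.

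Joint and jaw patterning genes reached 30 UMIs in 5 cases, all higher in mutant gated cells: nkx3.2 and fibinb of the joint list, and prrx1a, prrx1b and six2a of the jaw list. Of these, all but six2a passed 2-fold, against 4.04% of all genes, with 11.5% to 25% of the UMIs of each of the 4 in 1 cell. In other cells the median log2 ratio was 0.83 for the measured jaw genes, so their rise was not limited to gated cells. It was -0.02 in other cells for the measured joint genes. Prrx1b, a homeobox gene of limb and face mesenchyme, gave 58 UMIs in mutant and 10 in WT gated cells (log2 2.20), and its log2 ratio was 1.76 without its top cell and 0.66 when cells were gated after thinning. Fibinb, a secreted protein gene, was at 2.28 UMIs per 10000 in mutant and 1.09 in WT gated cells, prrx1a at 1.06 and 0.516, and six2a at 0.746 and 0.607. The log2 ratio of fibinb was 0.34 when cells were gated after thinning, and that of prrx1a 0.24 in the scaled matn1 window. Tcap, a muscle sarcomere gene, gave 0 UMIs in mutant and 46 in WT gated cells, and 95.7% of those lay in 1 WT cell.

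Gated cells were compared with each other after thinning to 3000 UMIs, which left all 40 mutant cells and 29 of the 33 WT cells. Over 225 genes with a mean of at least 1 UMI in both libraries, the median variance over mean was 1.22 in mutant and 1.19 in WT cells, little above the value of 1 that counting alone gives. Ribosomal protein genes, left out of the named genes, are among the 225. Ranked by the smaller of the 2 values, CR383676.1 led with 9.045 in mutant and 13.15 in WT cells. Next came zgc:162730 with 8.61 and 6.02, and the gene ranked 39, eef1a1l2, still had 1.93 and 1.51. Bhmt had a variance over mean of 6.64 in mutant and 3.58 in WT cells, fgfbp2b of 5.47 and 6.57, mia of 3.81 and 8.02, and col2a1a of 5.15 and 16.1. P4hb varied with 7.08 and 3.81. So among cells picked for near-equal epyc, bhmt and fgfbp2b still ran from near 0 to over 75 UMIs per 10000.

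**Figure D5:**
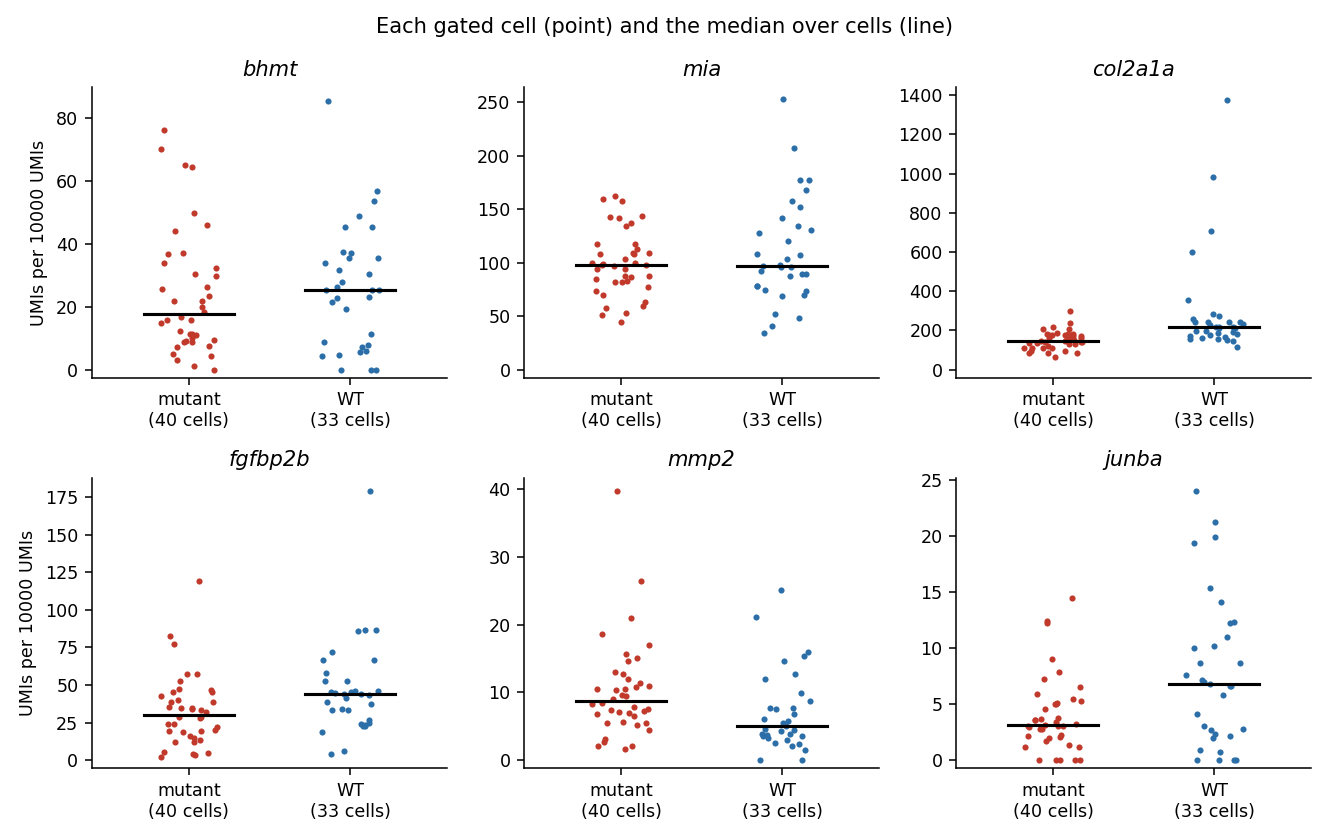
UMIs per 10000 UMIs of 6 genes in each gated cell (points), with the median over cells (line), for 40 mutant cells (left) and 33 WT cells (right) in each panel; every pair overlaps. For col2a1a, 4 WT cells lie at 598 or above, and bhmt spans 0 to 76.3 in mutant and 0 to 85.5 in WT cells.

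Along the matn1 window, the summed col2a1a level was lower in the mutant in each band, though single cells overlapped and the lowest band holds few cells. In the bands of 30 to under 60, 60 to under 90 and 90 to under 120 matn1 UMIs per 10000, it was at 127, 139 and 161 UMIs per 10000 in 3, 13 and 24 mutant cells, and at 224, 223 and 224 in 2, 12 and 19 WT cells. Bhmt was at 39.3, 29.7 and 24.97 in the mutant bands and at 46.2, 26.2 and 32.7 in the WT bands. Mmp2 was at 8.20, 9.39 and 9.88 in the mutant bands and at 7.81, 7.66 and 4.91 in the WT bands, so its difference was largest in the highest band.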

How the data were processed

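Both libraries were made with the 10x Genomics 3' v2 kit per the labels, and the deposited UMI counts per gene and barcode came from Cell Ranger per the submitters' processing notes; its version and genome build are not given in the sources used here, nor how reads shared by near-identical genes were treated. Entries sharing a symbol were summed (35117 entries, 31400 symbols). No filter on cells was added. UMIs were summed over gated cells of a library and scaled to 10000; a count under 3 was set to 3 in log2 ratios. Sums have Poisson, shares Clopper-Pearson and ratios conditional binomial intervals. With 1 library per group, called means past 2-fold. Members and the 38 gene lists were chosen with earlier results of these data known.

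Named genes came from a rule: from genes of 100 UMIs or more, leaving out gate, mitochondrial and ribosomal protein genes and those with over 10% of UMIs in 1 cell, the 10 highest and 10 lowest mutant over WT (not under 0.1 of the level in other cells), and the 15 highest and 10 lowest against other cells with at least 1 UMI per 10000. For the lowest, the 1-cell limit was read over all cells. The gate genes, given marks, nkx3.2 and up to 4 members per list were added. The interval method was checked on simulated counts. Scrublet was run in Scanpy 1.11.5, and TMM in edgeR 4.0.16, with Python 3.11.15, numpy 2.4.6, scipy 1.17.1, pandas 2.3.3 and matplotlib 3.10.9.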

Additional observations from a re-analysis of the deposited data

Results flagged for a closer look

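For 11 of the named genes, the ratio of mutant over WT in gated cells lay on the other side of 1 from other cells. Counting intervals excluded 1 in both. The difference between the 2 ratios was not tested, and a count over all 1164 measured genes is not given. Whether 11 is many or few can thus not be told, and some of the genes were named for their high or low ratios. The ratio was above 1 in gated cells and below 1 in other cells for nkx3.2 (2.52 and 0.875), tgm2l (1.73 and 0.507), ahcy (1.72 and 0.890), mmp2 (1.63 and 0.903), chac1 (1.49 and 0.929), timp2a (1.45 and 0.749), pdia3 (1.36 and 0.947) and tubb4b (1.30 and 0.913). It was below 1 in gated cells and above 1 in other cells for bhmt (0.880 and 1.5), mdh1aa (0.551 and 1.18) and krt5 (0.301 and 1.16). One cell held 21.0% of the gated tgm2l UMIs and 17.5% of the krt5 UMIs. The tgm2l log2 ratio was 0.79, and -1.30 in the scaled matn1 window. Across the alternative runs, the log2 ratio of bhmt reached 0.10 and that of timp2a -0.03, so these also changed direction. That of mmp2 shrank to 0.06, that of tubb4b to 0.08 and that of krt5 to -0.08. Nkx3.2, ahcy, chac1, pdia3 and mdh1aa kept their direction in every alternative run.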

How the results depend on the processing

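No paired analysis was possible because each genotype is 1 library. An epyc minimum of 30 put 7.08% of mutant and 5.4% of WT cells in the gate, and gave 104 genes 2-fold higher and 99 lower in the mutant, and 5 higher and 416 lower than in other cells; a minimum of 60 left 0.0499% and 0.0486%, too few cells for gene results. A matn1 window of 40 to 100 gave 1.25% and 0.875%, with 26 genes higher and 28 lower in the mutant and 143 lower than in other cells. Gating after thinning gave 4.75% and 2.55%, 114 genes higher in the mutant, 4 higher than in other cells, and a tcap log2 ratio of 0.36 in place of -4.27. Without cells over 2 times the median depth, 0.991% of WT cells passed, 36 genes were lower in the mutant, 26 higher and 129 lower than in other cells, and the cartilage matrix median was -0.49. The scaled matn1 window gave 0.499% of mutant cells, 18 genes higher in the mutant, and 28 higher and 82 lower than in other cells. Means of per-cell values gave 35 higher and 354 lower than in other cells. A minimum of 10 UMIs gave 244 genes higher and 283 lower in the mutant, and one of 100 gave 8 and 10. Equal weight for 3 matn1 bands gave 87 and 118, and a cell cycle exit median of 0.17. At least 30 or 300 UMIs per library gave 67 or 7 genes higher than in other cells. Of the other list medians recomputed, 171 stayed between the medians of their members' lower and upper interval limits. That range reflects single genes and is no counting range of the list median. For immediate early genes it ran from -1.63 to -0.24, so a shift from -0.87 to -0.26 counted as staying. The 171 is thus no measure of how firm the list medians are. Of single-gene ratios, 1548 stayed within their counting range, while 191 moved beyond it. TMM shifted log2 ratios by -0.03. The scaled window, leaving out 2 WT cells of low ribosomal share and leaving out each gene's top cell were chosen after seeing the data. Depth limits most genes: at 40 and 33 cells, 1164 genes reached 30 UMIs.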
